A study of Homo sapiens with 4 samples.

Results

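The FOXK2 peaks described here lie in exons and in 5' untranslated regions (5' UTRs) of genes. They are all rows of both deposited peak lists whose annotation begins with "exon" or "5' UTR", 839 of 39752 peaks. The list of replicate 1 held 264 of them among 12471 peaks (2.12%), 127 in exons and 137 in 5' UTRs. The list of replicate 2 held 575 among 27281 (2.11%), 325 in exons and 250 in 5' UTRs. FOXK2 ChIP-seq was done in OVCAR5, an established ovarian cancer cell line that the labels trace to ascites, in 2 biological replicates of a single condition, and the labels name no treatment or genetic change. Peaks were called and annotated for each replicate on its own, on hg38. Every peak was 210 bp wide in replicate 1 and 256 bp wide in replicate 2. The input libraries were not analysed here, so no value below is a signal over input, and 1 cell line without a condition to set it against allows no statement on change.

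FOXK2 is a forkhead transcription factor. Factors of this family bind DNA through a winged-helix domain and recognise sites with the core TGTTTAC, which reads GTAAACA on the opposite strand. The 5' UTR is the part of a messenger RNA before the start codon, and as DNA it lies just downstream of the promoter. Coding exons carry the protein sequence, so a binding site inside one is made of codons. The annotation program, HOMER, gives each peak 1 class by the base at its centre and lets the promoter come first, here as 1000 bp upstream to 100 bp downstream of a transcription start site (TSS). A peak in the first 100 bp of a gene is therefore a promoter peak whatever the exon there encodes, and the members nearest to a TSS were 107 bp and 101 bp away among the exon peaks and 102 bp and 101 bp away among the 5' UTR peaks, in replicates 1 and 2. Exons of non-coding transcripts (132 and 244 peaks) and 3' UTRs (88 and 177 peaks) are separate classes and are not described.

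To show what the sites look like, 29 bases of hg38 are given for 7 genes whose peaks had the same class in both lists. They are the genes named by score or by motif copies that hold TGTTTAC, printed 5' to 3' on the strand that reads TGTTTAC, with that core in capitals and 11 bases on each side.
MBTPS1, 5' UTR, chr16:84116807-84116835, plus strand: ccattcggggcTGTTTACtcccaactctc
NQO2, 5' UTR, chr6:3002087-3002115, minus strand: cccagtttacaTGTTTACatcatatggct
PNPLA7, 5' UTR, chr9:137550416-137550444, minus strand: cacgtgagggcTGTTTACagagggaagga
LRRC2, 5' UTR, chr3:46566213-46566241, plus strand: cccgccgcggcTGTTTACaccgcagaggc
HECW2, exon, chr2:196292720-196292748, minus strand: tgcctaccgcaTGTTTACaaacaacacgt
ARIH2, exon, chr3:48919015-48919043, plus strand: cgtcacggcctTGTTTACcttggctggcc
DIXDC1, exon, chr11:111989010-111989038, minus strand: ttctggcttctTGTTTACatttcagcagt
The core lay close to the peak centres in all 7 genes. It was 23 and 14 bp from the centres of replicates 1 and 2 at MBTPS1, 4 and 3 bp at NQO2, 18 and 19 bp at PNPLA7, 18 and 5 bp at LRRC2, 16 and 2 bp at HECW2, 10 and 33 bp at ARIH2, and 7 and 3 bp at DIXDC1. In GENCODE release 44 the sites of HECW2 and DIXDC1 are coding sequence, and in both the first base of the core is the second base of a codon. The sites of MBTPS1, NQO2 and LRRC2 are 5' UTR in GENCODE, while those of ARIH2 and PNPLA7 were matched to no exon of a host transcript there. ARIH2 is named as the gene of the nearest TSS, since the transcript annotated at that site was not matched to a RefSeq gene.

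The 5' UTR class was almost wholly a promoter-side class, and the exon class spread over both sides of a line set at 1000 bp from a TSS. Of the 5' UTR peaks, 130 of 137 (94.9%, Wilson 95% interval 89.8 to 97.5) lay within 1000 bp of the nearest TSS in replicate 1 and 236 of 250 (94.4%, 90.8 to 96.6) in replicate 2. Of the exon peaks, 60 of 127 (47.2%, 38.8 to 55.9) and 130 of 325 (40.0%, 34.8 to 45.4) did. Exon peaks within this distance are called near below, and those beyond it far. These intervals, like all others here, cover counting error only. The class depends on the place in the gene, so these shares are a description.

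**Figure D1:**
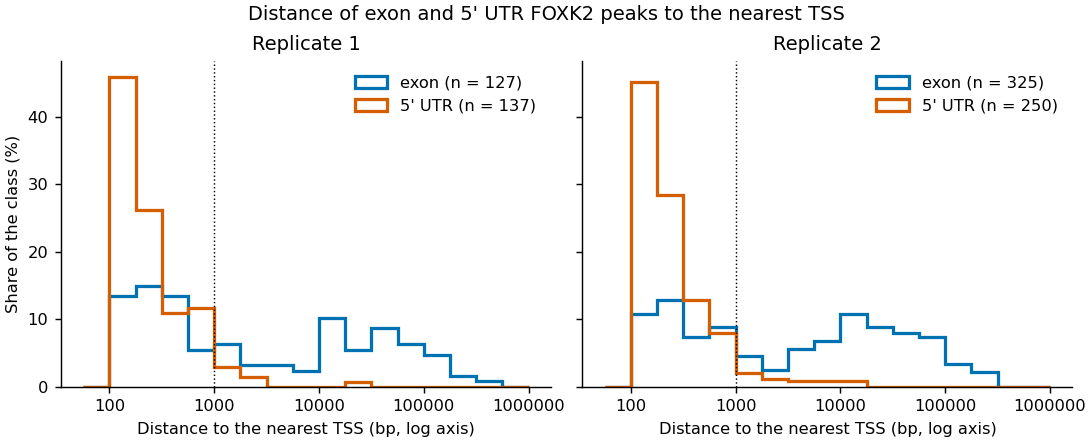
Distance from the peak centre to the nearest TSS (bp, log axis) for exon and 5' UTR peaks of each replicate, as a share of the class in percent; the dotted line marks 1000 bp. The 5' UTR peaks crowd below 1000 bp (medians 195 and 190.5 bp), while the exon peaks spread over both sides of the line (medians 1181 and 4843 bp).

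Exon numbers drew the same picture. Exon 1 held 129 of 137 and 231 of 250 of the 5' UTR peaks, against 53 of 127 and 112 of 325 of the exon peaks. Internal exons held 68 and 180 exon peaks, last exons 6 and 33, and transcripts of a single exon 4 and 6. The nearest TSS belonged to a gene other than the exon's own for 30 of 123 and 96 of 321 exon peaks whose transcript was matched to a RefSeq gene (GRCh38.p14), and for 5 of 136 and 9 of 247 5' UTR peaks. Assigning a peak to the nearest TSS thus named a different gene from the one whose exon it lies in more often in the exon class.

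The exons concerned were mostly coding. This is a property of the class, since 5' UTRs, 3' UTRs and exons of non-coding transcripts carry labels of their own. In GENCODE release 44, 117 and 309 of the exon peaks had their centre in coding sequence of a transcript of the host gene. The exon was 213 bp long in the median in replicate 1 and 220.5 bp in replicate 2, and in 58 of 122 and 183 of 320 peaks with a known exon it was shorter than the peak. A peak of this kind reaches past its exon, so the label says where the centre fell and not that the bound DNA is exonic.

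Seen against the length of each compartment, coding exons were not a dense class. With classes drawn anew from GENCODE, the centres of replicate 1 numbered 2.81 per megabase of coding exon (exact Poisson 95% interval 2.23 to 3.49), 3.47 per megabase of intron (3.38 to 3.57) and 4.24 over the whole genome. In replicate 2 they numbered 7.89 (6.90 to 8.99) in coding exons, 8.06 (7.92 to 8.20) in introns and 9.28 over the whole genome. The 5' UTRs outside promoters were denser, at 12.8 (9.0 to 17.8) and 26.1 (20.4 to 32.8) per megabase, and promoters denser again, at 28.7 and 53.6. Of the 36 and 73 centres counted in 5' UTRs, at most 13 and 29 were deposited 5' UTR peaks. Of the 80 and 225 in coding exons, at most 62 and 194 were deposited exon peaks. The density of a class in replicate 2 was higher throughout, as that list is longer.

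The 2 lists gave the classes similar shares. Exon peaks were 1.02% of the list of replicate 1 (0.857 to 1.21) and 1.19% of that of replicate 2, a difference of -0.17 percentage points (-0.38 to 0.05, adjusted p = 0.183, two-sided Fisher's exact test). The 5' UTR peaks were 1.10% (0.930 to 1.30) and 0.916% (adjusted p = 0.132, two-sided Fisher's exact test). The test takes the 2 lists as independent, but 74.9% of the peaks of replicate 1 were overlapped by a peak of replicate 2. Over the 2 lists the mean share was 1.10% ± 0.122 (SD, n = 2) for exon peaks and 1.01% ± 0.129 (SD, n = 2) for 5' UTR peaks.

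By peak score, the 5' UTR peaks stood higher in their lists than other peaks, and the exon peaks did not differ beyond the counting error. The score is HOMER's measure of the tags at a peak, scaled to each library, so peaks were ranked only within a list. Scores ran from 3.02 to 188.3 with a median of 5.85 in replicate 1, and from 3.12 to 387.9 with a median of 7.29 in replicate 2. The median was 6.98 and 8.63 for 5' UTR peaks and 5.85 and 7.14 for exon peaks. The highest 5' UTR scores were 29.8 and 59.0 and the highest exon scores 24.5 and 49.7, well below the best peaks of either list.

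A score above the list median was held by 49.3% of all peaks in each list, ties being left below. Among 5' UTR peaks it was held by 84 of 137 (61.3%) against 49.2% of other peaks in replicate 1 (odds ratio 1.64, adjusted p = 0.0101, two-sided Fisher's exact test). The list of replicate 2 had 153 of 250 (61.2%) against 49.3% (odds ratio 1.62, adjusted p = 0.000368, two-sided Fisher's exact test). Among exon peaks it was held by 47.2% and 45.5%, differences of -1.91 points (-10.4 to 6.77) and -3.72 points (-9.09 to 1.74) that did not pass the test. Set against promoter peaks alone, of which 58.5% and 65.2% were above the median, the 5' UTR peaks differed by 2.77 points (-5.79 to 10.7) and -4.03 points (-10.3 to 1.95), and neither difference passed the test. Against the same promoter peaks the exon peaks stood lower, by -11.3 points (-20.0 to -2.47) and -19.7 points (-25.2 to -14.1).

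Most exon and 5' UTR peaks of the shorter list were overlapped by a peak of the longer list, by at least 1 bp. Over all peaks 74.9% of replicate 1 and 34.2% of replicate 2 were overlapped. Among exon peaks the share was 70.1% (89 of 127) and 32.6% (106 of 325), differences from other peaks of -4.85 points (-13.3 to 2.47) and -1.58 points (-6.48 to 3.73) that did not pass the test. Among 5' UTR peaks it was 78.8% (108 of 137) in replicate 1, which did not pass the test, and 41.6% (104 of 250) in replicate 2 against 34.2% of other peaks (odds ratio 1.37, adjusted p = 0.0252, two-sided Fisher's exact test). The last difference was 3.28 points and no longer passed the test among peaks with scores above the list median. Against promoter peaks, of which 79.1% and 43.9% were overlapped, 5' UTR peaks differed by -0.31 and -2.33 points and did not pass. Exon peaks differed from promoter peaks by -9.06 and -11.3 points and passed (adjusted p = 0.0326 and 0.000162, two-sided Fisher's exact test).

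The score went with overlap inside each class. In replicate 1, 88.3% of exon peaks above the list median were overlapped against 53.7% of those at or below it, and in replicate 2, 54.1% against 14.7%. For 5' UTR peaks the shares were 91.7% against 58.5%, and 60.8% against 11.3%.

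The forkhead core was present in both classes more often than in flanking windows, but less often than in other FOXK2 peaks. TGTTTAC was sought on either strand up to 100 bp from the centre, and was found in 30.5% of all peaks of replicate 1 and 28.2% of replicate 2. In exon peaks it was found in 23 of 127 (18.1%) and 52 of 325 (16.0%), against 30.9% and 28.5% of other peaks. The odds ratios were 0.495 (adjusted p = 0.00343) and 0.478 (adjusted p = 7.1e-07) by a two-sided Fisher's exact test. In 5' UTR peaks it was found in 19 of 137 (13.9%) and 26 of 250 (10.4%), with odds ratios of 0.361 (adjusted p = 1.56e-05) and 0.291 (adjusted p = 2.89e-11) by the same exact test. Windows of the same length 2000 bp to each side of the members held it in 3.15% and 1.85% for exon peaks and in 3.28% and 3.60% for 5' UTR peaks. The odds of a core at the peak were 6.80 and 10.1 times those of its flanks for exon peaks (adjusted p = 4.05e-06 and 2.6e-15, two-sided Fisher's exact test). For 5' UTR peaks they were 4.74 and 3.11 times those of the flanks (adjusted p = 0.000277 and 0.0008, two-sided Fisher's exact test). With the looser core TGTTTNC the odds ratios against flanks were smaller, 1.98 and 2.12 for exon peaks and 2.42 and 1.61 for 5' UTR peaks, and all 4 passed.

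With respect to this core, 5' UTR peaks had values close to those of promoter peaks. Promoter peaks held it in 14.4% and 10.9%, and the difference of 5' UTR peaks from them was -0.53 points (-5.53 to 6.37) and -0.52 points (-3.84 to 3.97). Intron peaks held it in 35.2% and 32.4%. The lower share of exon peaks against other peaks turned into a higher one when promoter peaks alone were the comparison, by 3.71 points (-2.18 to 11.4) and 5.08 points (1.39 to 9.54), of which the second passed the test (adjusted p = 0.0159, two-sided Fisher's exact test).

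Far exon peaks held the core more often than near exon peaks. Near exon peaks held TGTTTAC in 4 of 60 (6.67%) and 10 of 130 (7.69%), and far exon peaks in 19 of 67 (28.4%) and 42 of 195 (21.5%). The flanks held it in 3.33% and 1.92% for near and in 2.99% and 1.79% for far exon peaks. Near exon peaks alone were not tested against their flanks. Far exceeded near by 21.7 points (8.51 to 34.1) in replicate 1 (adjusted p = 0.00328, two-sided Fisher's exact test). The excess was 13.8 points in replicate 2 (6.00 to 21.0, adjusted p = 0.002, two-sided Fisher's exact test). This direct comparison was chosen after the values were seen, and its p-values were adjusted over 6 such tests. Compared with other peaks over 1000 bp from a TSS, of which 36.1% and 32.7% held the core, far exon peaks held it less often in replicate 2 (adjusted p = 0.00546, two-sided Fisher's exact test) and with a difference of -7.70 points in replicate 1 (adjusted p = 0.393, same exact test). Other peaks were divided by distance in the same direction, at 15.7% and 12.9% within 1000 bp of a TSS. By exon number the shares were 5.66% and 6.25% in exon 1, and 27.0% and 21.1% in later exons.

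**Figure D2:**
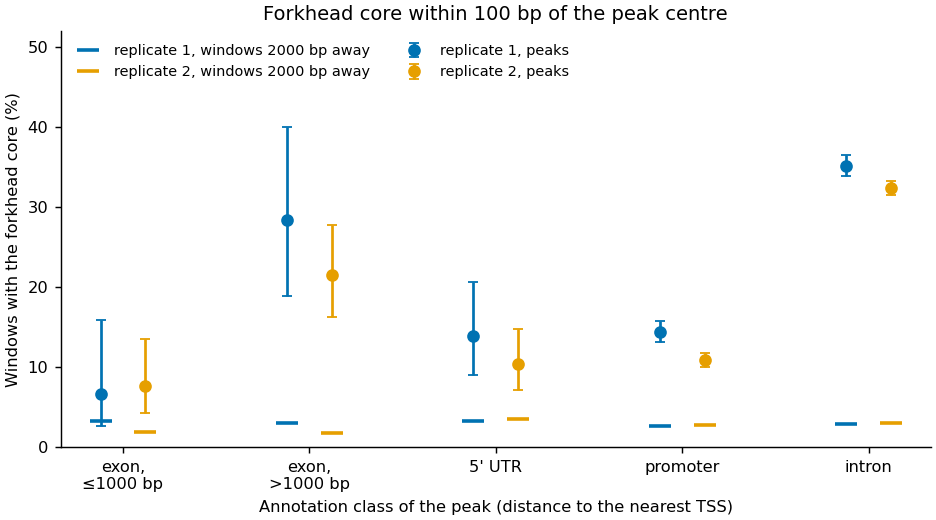
Share of windows with the forkhead core TGTTTAC within 100 bp of the peak centre, in percent, by class and replicate; circles are peaks with Wilson 95% intervals and short bars are windows of the same length 2000 bp away. Near exon peaks (6.67% and 7.69%) sit below 5' UTR peaks, and far exon peaks (28.4% and 21.5%) sit between 5' UTR and intron peaks (35.2% and 32.4%).

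Base composition moved with these shares. The GC content of the window was 67.9% in the median for near exon peaks of both lists, 47.8% and 48.8% for far exon peaks, 64.7% for 5' UTR peaks of both lists, and 44.3% for intron peaks of both. GC above the list median was found in 74.0% and 72.3% of exon peaks and in 89.1% and 92.0% of 5' UTR peaks, against 48.8% and 48.5% of other peaks. All 4 differences passed the two-sided Fisher's exact test, with adjusted p from 3.81e-08 down to 3.25e-47. Beyond 1000 bp from a TSS, the 7 and 14 5' UTR peaks that remained differed by 8.13 and 34.1 points and did not pass (adjusted p = 0.889 and 0.0523, same exact test). Promoter peaks, at 63.2% and 63.7%, were GC-rich as well. TGTTTAC itself is AT-rich. Among windows with a GC content between the quartiles of the members, a comparison chosen after seeing the data, its share was 12.5% and 10.1% in exon peaks against 26.6% and 23.8% in other peaks, and 8.33% and 3.20% in 5' UTR peaks against 20.2% and 17.4%. All 4 differences passed (adjusted p from 0.0175 down to 7.95e-06, two-sided Fisher's exact test). The range of GC within these quartiles was wide, 46.5 to 70.1% for exon peaks of replicate 1, and the near and far difference was not tested at matched GC.

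The density of the core was highest at the centre of the peak. Within the central 100 bp, exon peaks held 7.48 and 7.23 sites per 50 bp per 100 peaks (19 of 33 and 47 of 72 sites within 500 bp), and at 250 to 500 bp from the centre they held 0.472 and 0.308. For 5' UTR peaks the values were 6.20 and 4.80 at the centre and 0.146 and 0.280 away from it, and for other peaks 13.2 and 12.4 against 0.719 and 0.649. Both classes thus had the central maximum of the lists as a whole, at a lower height.

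**Figure D3:**
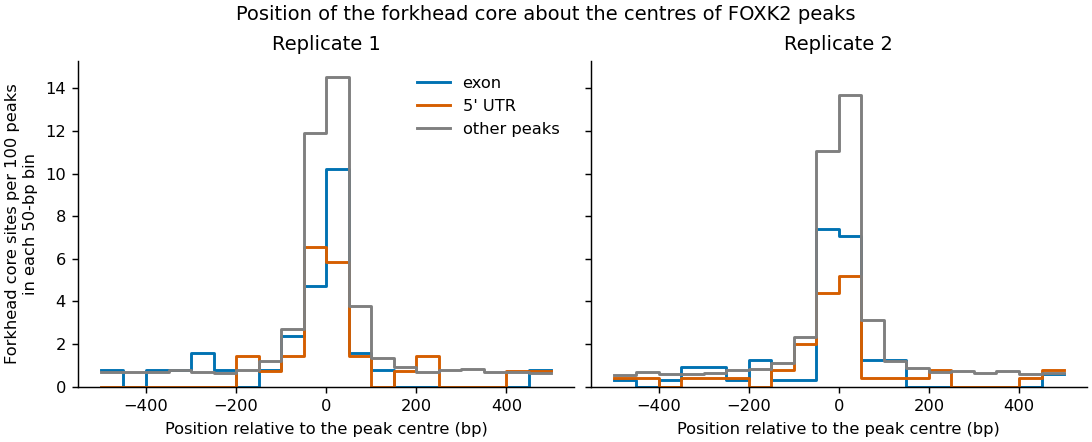
Sites of the forkhead core TGTTTAC per 100 peaks in 50-bp bins against the position relative to the peak centre (bp), for exon, 5' UTR and all other peaks of each replicate. All 3 groups have their maximum within 50 bp of the centre, and exon and 5' UTR peaks reach a lower height than other peaks (7.48 and 6.20 against 13.2 sites per 50 bp in the central 100 bp of replicate 1).

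The sites in exon peaks were mostly inside the exon itself and inside coding sequence. The class requires a centre in an exon and the core was densest at the centre, so this is a description. Of the sites in peaks with a known exon, 17 lay wholly in the exon and 4 outside it in replicate 1, and 38 and 13 in replicate 2. All 17 and 37 of the 38 were coding sequence. The first base of the core was base 1, 2 or 3 of a codon in 6, 10 and 1 of them in replicate 1 and in 9, 19 and 9 in replicate 2. Over all 2510 TGTTTAC sites in coding exons of MANE Select transcripts, the reference transcript of each gene, the shares at these positions were 30.6%, 45.1% and 24.2%, and the second base of a codon was the most frequent position in both lists and in coding sequence at large. The core read on the sense strand in 10 of 17 and 21 of 38 sites, against 55.9% over all coding exons. In 5' UTR peaks 14 and 23 sites lay in the exon and 1 and 1 outside it, and 3 of 14 and 9 of 23 read on the sense strand.

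The shares of 7 other motifs were compared in the same way. All were searched on both strands in the same window, none of them contains another, and a match is a description of letters, not of a bound factor. The AP-1 sites TGACTCA and TGAGTCA, bound by JUN and FOS proteins, were in 16.4% and 16.6% of all peaks. They were in 7.87% and 8.92% of exon peaks (adjusted p = 0.0101 and 0.000156, two-sided Fisher's exact test) and in 2.19% and 2.40% of 5' UTR peaks (adjusted p = 3.11e-07 and 3.28e-12, same exact test). Against other peaks over 1000 bp from a TSS, which held them in 21.0% and 20.3%, the far exon peaks did not pass in either list (adjusted p = 0.507 and 0.118, two-sided Fisher's exact test), and with windows of 50 bp to each side exon peaks of replicate 1 did not pass (adjusted p = 0.356, same exact test). Among exon peaks the AP-1 sites were almost all far from a TSS. They were in 0 of 60 near exon peaks of replicate 1 (upper Wilson bound 6.02%) and 1 of 130 of replicate 2, against 10 of 67 (14.9%) and 28 of 195 (14.4%) far exon peaks. Other peaks were divided in the same direction, with 4.00% and 3.64% near a TSS and 21.0% and 20.3% far from one. The differences of 14.9 and 13.6 points among exon peaks passed the test that was added after seeing the data (adjusted p = 0.00309 and 2.74e-05, two-sided Fisher's exact test). The windows 2000 bp away held an AP-1 site in 3.15% and 3.23% for exon peaks and in 2.55% and 3.80% for 5' UTR peaks, so the share in 5' UTR peaks was no higher than that of their flanks. Promoter peaks held one in 3.88% and 3.36%, and the 5' UTR peaks differed from them by -1.69 points (-3.33 to 2.42) and -0.96 points (-2.36 to 1.82).

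Motifs that are common in promoters were frequent in 5' UTR peaks. CCGGAA, the core of ETS factors, was in 28.5% and 26.0% of 5' UTR peaks against 9.52% and 8.26% of other peaks (odds ratios 3.78 and 3.90), and in 27.4% and 27.9% of promoter peaks. GGGCGG, the GC box of SP factors, was in 41.6% and 42.4% against 18.1% and 15.9% of other peaks, and in 52.9% and 53.7% of promoter peaks. TGACG, part of the cAMP response element, was in 24.8% and 22.4% against 13.6% and 12.3% of other peaks, and in 30.3% and 29.9% of promoter peaks. All 6 comparisons with other peaks passed the two-sided Fisher's exact test, with adjusted p from 0.000829 down to 3.94e-22. Beyond 1000 bp from a TSS, where 7 and 14 5' UTR peaks remained, only GGGCGG in replicate 2 passed (adjusted p = 0.0465, same exact test).

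In exon peaks the same motifs were less regular. GGGCGG passed in both lists (26.8% and 27.1%, adjusted p = 0.0243 and 1.13e-06, two-sided Fisher's exact test), but in replicate 1 neither with windows of 50 bp to each side (adjusted p = 0.321) nor beyond 1000 bp from a TSS (adjusted p = 0.289). CCGGAA and TGACG passed in replicate 2, at 14.2% and 21.5%. In replicate 1 they were at 9.45% and 18.9%, and passed against intron peaks (adjusted p = 0.0184 and 0.000951, two-sided Fisher's exact test) but not against other peaks as a whole. AAGATGG, the site of YY1, passed in replicate 1 (7.87% against 3.21%, adjusted p = 0.0145, two-sided Fisher's exact test) but not beyond 1000 bp from a TSS (adjusted p = 0.615, same exact test). In replicate 2 it was at 4.62% and passed only with windows of 50 bp to each side (adjusted p = 0.0449) or against intron peaks (adjusted p = 0.0436, two-sided Fisher's exact test). Whether these differed between the lists was not tested. CCAAT (NFY) and CACGTG (E-box) passed in neither class of either list.

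Pairing peaks across the lists left 251 pairs with an exon or 5' UTR member. Both peaks were exon peaks in 69 pairs and both 5' UTR peaks in 78, and the class differed in 104. Of exon peaks with a partner, 77.5% and 65.1% had a partner of the same class, and of 5' UTR peaks 72.2% and 75.0%. The class changed mostly across the promoter limit and across exon ends. A 5' UTR peak of replicate 1 was a promoter peak in replicate 2 in 20 pairs and the reverse held in 21. An intron peak of replicate 1 was an exon peak in replicate 2 in 21 pairs and the reverse held in 9.

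The class follows the base at the centre, and what made a pair differ in class was not tested. The median distance between centres was 75.5 bp for pairs that differed in class, 18 bp for exon pairs and 26 bp for 5' UTR pairs. Over all overlapped peaks of replicate 1 it was 29 bp. Spearman's rho of the score percentiles was 0.877 over the 69 exon pairs, 0.939 over the 78 5' UTR pairs, 0.848 over the 104 others and 0.852 over all overlapped peaks, as a description of peaks that share their 2 libraries. Both windows held TGTTTAC in 14 exon pairs (20.3%), in 14 5' UTR pairs (17.9%) and in 13 of the others (12.5%). An AP-1 site was in both windows of 5 exon pairs and of 0 5' UTR pairs.

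**Figure D4:**
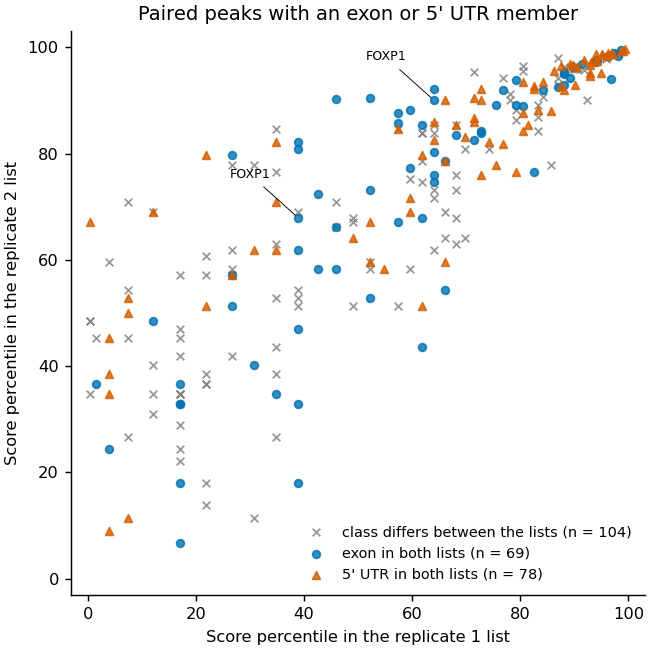
Score percentile within the list of replicate 1 (horizontal) and of replicate 2 (vertical) for the 251 overlapping pairs with an exon or 5' UTR member, by the classes of the pair; both FOXP1 pairs are named. Percentiles rise together (rho from 0.848 to 0.939) and are mostly higher in the longer list of replicate 2 (medians 61.9 and 80.8 for exon pairs, 74.9 and 86.3 for 5' UTR pairs), and 5' UTR pairs are frequent in the upper right corner, where 20 of them lie at a percentile of 90 or more in both lists against 9 exon pairs.

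The highest-scoring 5' UTR pairs had close ranks in both lists. At MBTPS1, which encodes the site-1 protease that cleaves SREBP and ATF6 in the Golgi, the peaks scored 29.8 and 59.0, at rank 87 and 93 of their lists, and lay at chr16:84116693-84116903 and chr16:84116679-84116935 in exon 1 of 23. At ZFP36L1, an RNA-binding protein that promotes decay of messages with AU-rich elements, they scored 26.4 and 46.0 (rank 127 and 187) and held no TGTTTAC. At NQO2, a quinone reductase, they scored 23.8 and 46.5 (rank 176 and 179) in exon 2 of 10, and lay 1947 and 1940 bp from the TSS, beyond the 1000 bp within which 74 of the 78 5' UTR pairs lay in replicate 1. All 3 pairs ranked within the first 200 peaks of both lists.

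The next 5 pairs ranked between 284 and 603 in both lists. FBXO25, an F-box protein of ubiquitin ligases, scored 18.5 and 35.5 (rank 350 and 355). CTDSP2, a phosphatase that acts on RNA polymerase II, scored 17.4 and 37.0 (rank 402 and 323). PNPLA7, a lysophospholipase, scored 16.4 and 38.5 (rank 465 and 284) with its core in the site printed above. PDPR, the regulatory subunit of pyruvate dehydrogenase phosphatase, scored 16.2 and 33.2 (rank 483 and 426), and BCL6, a transcriptional repressor of germinal-centre B cells, scored 14.9 and 36.1 (rank 603 and 339). Neither of these last pairs held TGTTTAC, and of the 8 best 5' UTR pairs MBTPS1, NQO2 and PNPLA7 did.

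Among exon pairs HECW2 stood first, and its peaks were far from the start of that gene. HECW2 encodes a HECT-type ubiquitin ligase. The peaks scored 24.5 and 49.7 (rank 159 and 148), lay at chr2:196292645-196292855 and chr2:196292604-196292860, and had their centres in exon 12 of 27, 186 bp long. The nearest TSS, 32726 and 32708 bp away, was that of LOC101927482. ARIH2, another ubiquitin ligase, was the nearest gene to the second pair (21.1 and 32.9, rank 236 and 436), at 199 and 176 bp from its TSS. The transcript that carried that exon was not matched to a RefSeq gene.

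The other 10 exon pairs fell on both sides of the 1000 bp line. Near a TSS were GPRC5C, an orphan G protein-coupled receptor (19.1 and 38.2), MRPL45, a mitochondrial ribosomal protein (16.4 and 33.2), LANCL2 (14.1 and 27.5), MKRN1, a RING ubiquitin ligase (11.5 and 23.3), and ZNF688, a zinc finger protein (10.9 and 21.6). All 5 lay in exon 1 and held no TGTTTAC. Far from a TSS were PAX8, GLG1, DIXDC1, TCP11L1 and GIPR.

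PAX8, a lineage transcription factor of Müllerian epithelium and of most serous ovarian carcinomas, had peaks in its last exon, 12 of 12. They scored 14.0 and 28.3 (rank 742 and 630), at chr2:113218497-113218707 and chr2:113218478-113218734, and the nearest TSS was that of PAX8-AS1, at -16925 and -16921 bp. GLG1, a Golgi sialoglycoprotein, scored 14.0 and 26.3 in exon 11 of 26, and the nearest TSS belonged to CLEC18B, at -58808 and -58797 bp. DIXDC1, which acts in Wnt signalling, scored 17.5 and 19.8 (rank 394 and 1605) in exon 6 of 16, which is 51 bp long. TCP11L1 scored 12.3 and 25.3 and held an AP-1 site in both windows. GIPR, the receptor of the incretin GIP, scored 11.3 and 20.1 in exon 12 of 13, with MIR642B as the nearest TSS. Of these 5 far pairs, DIXDC1 alone held TGTTTAC, and HECW2, ARIH2 and DIXDC1 were the 3 of the 12 best exon pairs that did.

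Members were scattered over genes. No gene had 3 or more exon peaks in a list. FOXP1 and GLG1 had 2 exon peaks in each list, and CPSF2, FAT1 and ULK4 had 2 in replicate 2 alone. ARHGAP24 had 2 5' UTR peaks in replicate 2. The last 4 genes were named after their values were seen.

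LRRC2, a leucine-rich repeat protein, was the only pair of either class with more than 1 copy of the core in both windows. It held 3 copies in each, scored 9.43 and 18.4 (rank 2128 and 1955), and lay 305 and 328 bp from the TSS in exon 1 of 9. The site printed above is the copy nearest to the centre of replicate 2.

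Genes that bear on FOXK2 or on the study were followed in 10 lists of 197 genes in all. Of their genes with a peak of any class, 7 of 106 (6.60%) had an exon or 5' UTR peak in replicate 1 and 13 of 152 (8.55%) in replicate 2. Over all genes with a peak the counts were 262 of 8359 (3.13%) and 567 of 13887 (4.08%). The lists were chosen with earlier results of these data known and most had 1 or 2 such genes, so nothing is read from the difference. Genes of the unfolded protein response, the stress pathway of the endoplasmic reticulum that the study examines, had such a peak in 0 of 9 and 1 of 14 genes, the latter being PDIA4, a protein disulfide isomerase, with a score of 4.46 in replicate 2.

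MYC, FOXP1, IRS2, RBL1, KLF9 and SMAD7 had such a peak in both lists. MYC, a transcription factor of growth and stemness, had 5' UTR peaks with scores of 14.0 and 35.7 (rank 742 and 351), at 419 and 441 bp from the TSS, with 1 TGTTTAC in each window. KLF9, a Krüppel-like factor, had 5' UTR peaks with scores of 10.9 and 17.8 (rank 1439 and 2148), also with 1 TGTTTAC in each. RBL1, the pocket protein p107, had 5' UTR peaks with scores of 9.05 and 19.0 and no TGTTTAC. MYC had the best rank of these 3 genes in both lists, followed by KLF9 in replicate 1 and by RBL1 in replicate 2. MYC and FBXO25 lie on chromosome 8, where other peaks stood above the list median more often than elsewhere. Without that chromosome 47.9% of other peaks were above it in replicate 1, against 49.2% with it. In replicate 2 the shares were 48.1% and 49.3%.

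IRS2, an adaptor of the insulin receptor, had exon peaks with scores of 10.6 and 18.3 (rank 1588 and 2013) in the coding part of exon 1 of 2. FOXP1, itself a forkhead factor, had 2 exon pairs. One lay in coding exon 9 of 21, 12314 and 12354 bp from the TSS, and scored 6.98 and 16.4, and the other lay in exon 1 of 16 of another transcript, 283 and 291 bp from its TSS, and scored 5.28 and 9.52. Neither held TGTTTAC. SMAD7, an inhibitor of TGF-beta signalling, had a 5' UTR peak in replicate 1 and an exon peak in replicate 2, with low scores of 3.96 and 5.35 and centres 16 bp apart, an example of a class that changed between the lists while the peaks overlapped.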

How the data were processed

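Per the methods of the study, the authors mapped single-end reads to hg38 with Bowtie2 2.2.6 and called peaks with HOMER 4.10, and per the file headers each replicate was annotated on its own. The deposited peak score is HOMER's tag measure scaled to the library, and was ranked only within its list. The deposited focus ratio is the fraction of tags on the expected side of the peak centre. The deposited distance to the TSS is in bp. In steps of 0.18 (replicate 1) and 0.14 (replicate 2), scores were tied, and library depth was not given in the sources used here.

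Classes were taken from the deposited annotation. Windows of 100 bp to each side of the centre were read from hg38, and motifs were counted on both strands, also 2000 bp to each side. Shares carry Wilson intervals, differences Newcombe intervals and densities exact Poisson intervals, at 95%. Peaks of a list were set against each other by Fisher's exact test, two-sided, with Benjamini-Hochberg adjustment over 54 tests, of which 34 passed 0.05. Peaks are not replicates of a condition, so p-values measure counting error within a library. Exons, coding sequence and reading frames came from GENCODE release 44 and gene names of transcripts from RefSeq.

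The members, lists and tests were chosen with earlier results of these data known. Genes were named by rule: the 12 exon and 8 5' UTR pairs of the same class in both lists with the best mean score percentile, genes with 3 or more exon peaks in a list, genes of the 10 lists with a member in both lists, and pairs with 2 or more TGTTTAC in both windows. Alternatives were other windows, TGTTTNC, stricter overlap, parts of the lists, other comparison classes, other distances, GENCODE classes and leaving out each replicate. The steps for overlap, motifs and tests were first checked on simulated peaks whose answers were known. Inputs and reads were not analysed here. Tests ran in scipy 1.17.1 and statsmodels 0.14.6 under Python 3.11.15, sequences were read with samtools 1.23.1 and pysam 0.24.0, and tables and figures were made with numpy 2.4.6, pandas 2.3.3 and matplotlib 3.10.9.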

Additional observations from a re-analysis of the deposited data

How the results depend on the processing

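Of 154 recomputed values of the main results, 113 kept direction and, where tested, side of the threshold, 5 came to pass it, 21 no longer passed it and 15 changed sign. Of 100 for single motifs and base composition, 69 kept both, 3 came to pass, 15 no longer passed and 13 changed sign. Values below are differences in percentage points from the comparison peaks, for replicates 1 and 2 where both are given, and the cause was not tested.

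The overlap of 5' UTR peaks in replicate 2 fell short of the threshold with an overlap of at least 50% of each peak (3.09), among scores above the list median (3.28), with lists of equal length (2.67) and, in an alternative chosen after seeing the data, above the upper quartile alone (1.10). It was -2.33 against promoter peaks and -3.15 beyond 1000 bp from a TSS. In replicate 1 the same overlap, which did not pass as reported, was -0.31 against promoter peaks, -16.6 beyond 1000 bp and -0.38 above the upper quartile. The overlap of exon peaks turned to 5.37 and 0.58 beyond 1000 bp and, in replicate 2, to 0.38 against intron peaks, without passing. It passed in replicate 1 with lists of equal length (-10.4) and in both lists against promoter peaks (-9.06 and -11.3).

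For a score above the median, exon peaks passed against promoter peaks (-11.3 and -19.7) and 5' UTR peaks did not (2.77 and -4.03). The 5' UTR peaks beyond 1000 bp from a TSS, 7 and 14 in number, did not pass either (25.1 and 11.8). Exon peaks of replicate 1 were at 0.094 against intron peaks and 1.41 beyond 1000 bp. The share of the list in 5' UTRs differed by -0.040 between lists of equal length.

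For TGTTTAC against promoter peaks, exon peaks turned higher (3.71 and 5.08) and 5' UTR peaks no longer passed (-0.53 and -0.52). Beyond 1000 bp the values were -7.70 for exon peaks in replicate 1, and 6.80 and -4.08 for 5' UTR peaks. With exon 1 left out they were -3.83 for exon peaks in replicate 1, and -18.4 and -18.0 for the 8 and 19 5' UTR peaks that remained. Against flanks, the 5' UTR peaks gave 42.9 and 25.0 beyond 1000 bp, and 0 and 5.26 with exon 1 left out. None of these but the 5.08 passed the test. Limited to windows with a GC content between the quartiles of the members, an alternative chosen after seeing the data, the values were -14.1 and -13.7 for exon and -11.9 and -14.2 for 5' UTR peaks, and passed.

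The far and near difference of exon peaks no longer passed above the median score of replicate 1, for TGTTTAC (17.4), AP-1 (12.5) and overlap (11.6), where 32 far peaks remained. As reported, overlap was 19.1 points higher in far exon peaks of replicate 1 (adjusted p = 0.0255, two-sided Fisher's exact test) and -0.77 points in replicate 2. All of these comparisons were chosen after seeing the data. CCGGAA in exon peaks of replicate 1 turned to 5.21 against intron peaks, which passed, 0.48 beyond 1000 bp and 0.75 with windows of 50 bp to each side. In 5' UTR peaks of replicate 1 beyond 1000 bp CCGGAA was -4.00 and TGACG -8.46. Motifs that passed nowhere also changed sign. CCAAT was 5.42 and 1.37 for exon and 18.4 and 4.82 for 5' UTR peaks beyond 1000 bp, and 1.69 for 5' UTR peaks of replicate 1 against intron peaks. CACGTG in 5' UTR peaks was -4.40 and -3.92 beyond 1000 bp and -0.045 in replicate 1 with windows of 50 bp to each side. The calls lost for AP-1 in exon peaks stood at -6.12 and -5.96 beyond 1000 bp and -3.09 in replicate 1 with those windows.

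Leaving out each replicate in turn gave mean shares of 1.02 to 1.19% for exon and 0.916 to 1.10% for 5' UTR peaks. No paired analysis was possible because the peak lists come from a single condition and the inputs were not analysed here. With classes from GENCODE, 80 and 225 peaks were in coding exons and 36 and 73 in 5' UTRs outside promoters. As deposited, these classes held 127 and 325 peaks and 137 and 250 peaks. GENCODE promoters held 63 and 130 of the deposited exon peaks and 122 and 219 of the deposited 5' UTR peaks. Only 62 and 194 deposited exon peaks and 13 and 29 deposited 5' UTR peaks had the same class in GENCODE. The GENCODE classes thus also held peaks of other deposited classes.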
